A study of Homo sapiens with 8 samples.

Results

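The 2'-5'-oligoadenylate synthetase (OAS) family was described here through OAS1, OAS2, OAS3 and OASL, the 4 members taken by gene symbol from the 60592 gene rows of each library. The members were followed in 4 groups of 2 libraries from WSU-DLCL2, a cell line established from a human diffuse large B-cell lymphoma. Control cells (labelled WT) and cells overexpressing FDX1 (FDX1-OE), a mitochondrial ferredoxin, were kept for 48 h in DMSO, the solvent, or in 15 nM elesclomol (ES), a copper ionophore. All 8 libraries were made from total RNA of this cell line. Groups are named by cell and treatment, so that FDX1-OE ES means FDX1-OE cells given ES. The vector and promoter behind FDX1, and whether the cells were a clone or a pool, are not given in the sources used here. The labels do not say whether the libraries within a group are separate cultures, so the p-values reflect variation between these samples alone, possibly technical.

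OAS proteins are antiviral enzymes. OAS1, OAS2 and OAS3 bind double-stranded RNA and then join ATP into short chains with 2'-5' bonds. These chains are a second messenger of antiviral defence, and phosphodiesterases break them down. OASL keeps the fold of the family but makes no such chains, and carries ubiquitin-like domains that act with the RNA sensor RIG-I. All 4 are textbook interferon-stimulated genes: interferon receptors activate a transcription factor complex that holds IRF9 and binds the interferon-stimulated response element (ISRE) at their promoters. The members were chosen by symbol, and the family was selected on the measured rise of interferon-stimulated genes under ES in these same libraries. Its ES differences are therefore given as levels and log2 differences without a p-value.

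The 8 libraries held the marker genes of a B cell line. The 6 B cell markers summed to 1360 and 1390 FPKM (fragments per length of gene model, scaled to library size) in FDX1-OE ES and to 1460 to 1500 FPKM elsewhere. The 8 T and NK cell markers were each below 1 FPKM in every library, and CD3D, CD3G, CD2, GNLY and KLRD1 were listed at 0. TRAC, a T cell receptor constant gene outside that list and added after its values were seen, stood at 70.1 to 85.5 FPKM in all 8 libraries. The 8 listed T and NK cell markers summed to 0.655 and 0.707 FPKM in FDX1-OE ES, against 0.154 and 0.158 in control ES and at most 0.151 without ES. The 3 markers of plasmacytoid dendritic cells, which make much interferon, summed to at most 0.0618 FPKM, with CLEC4C and IL3RA listed at 0. The 7 myeloid markers summed to 1.7 to 2.38 FPKM in DMSO libraries, 3.62 and 4.6 FPKM in control ES, and 4.01 and 5.97 FPKM in FDX1-OE ES, and FCGR3A was listed at 0. The 5 epithelial and fibroblast markers summed to at most 0.367 FPKM outside FDX1-OE ES and to 0.729 and 0.874 FPKM in it. The part of these small marker shifts in the results was not tested. FDX1 itself, which checks the labels, stood at 9.88 to 10.8 FPKM in the 4 control libraries and at 56.0 to 60.7 FPKM in the 4 FDX1-OE libraries. The values of each FDX1-OE ES library summed to 408018 and 403024 FPKM, those of the control ES libraries to 446949 and 447377, and those of the DMSO libraries to 445716 to 451027. The FDX1-OE ES libraries thus had the lowest totals, and their 2 replicates differed by a median of 0.165 on the log2 scale against 0.0748 to 0.0873 in the other groups. Read depth is unknown.

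OAS1, OAS3 and OAS2 lie side by side on chromosome 12 and OASL lies on the same chromosome. In the GRCh38 annotation of GENCODE release 29, which is not the hg19 build named for the files, OAS1 (ENSG00000089127.12) covers chr12:112906777-112933222, OAS3 (ENSG00000111331.12) chr12:112938352-112973249 and OAS2 (ENSG00000111335.12) chr12:112978395-113011723, all on the plus strand. OASL (ENSG00000135114.12) covers chr12:121019111-121039242 on the minus strand. The annotation gives OAS1 11 transcripts, OAS3 7, OAS2 7 and OASL 4, while the files hold 1 value per gene, so isoforms cannot be told apart.

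RefSeq promoter windows (GRCh38.p14, 250 bases before to 50 bases after the start) matched 2 of the 4 members, OAS1 and OAS3. The core of the ISRE was searched on both strands as GAAA and GAAA with any 2 bases between them. The 3 stretches of 30 bases below show matches to this core or to a shorter form of it, all on the plus strand and written 5′ to 3′, with the match in capitals. Positions count from the RefSeq start, which is 0.
OAS3 upstream match, chr12:112938321-112938350: agaaagaaacGAAACTGAAAgcagggaatt
OAS3 match at the start, chr12:112938452-112938481: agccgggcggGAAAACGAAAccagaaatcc
OAS1 match at the start, chr12:112906934-112906963: tcccttctgagGAAACGAAAccaacagcag
OAS3 held this core at positions -143 to -134, outside the gene, and again at -12 to -3, in an exon of 3 GENCODE transcripts. The OAS1 window did not hold it. The OAS1 match at -17 to -9, also in an exon of 3 transcripts, is to the form 1 base shorter, GAAANGAAA, which was chosen after the sequences were seen. The core was present in 3.57% of 35116 windows and in 29 of the 45 windows of other interferon-stimulated genes. Counted by gene, with a match in any window, it was present in 4.38% of 27305 genes. It was present in 24 of the 32 other interferon-stimulated genes with a window. GAAANGAAA was present in 3.87% of all genes with a window, in both members with a window and in 11 of those 32 genes. In OAS3 the shorter form also occurred at -148 to -140, where it overlaps the upstream match above. The core of the gamma-activated site, TTCNNNGAA, was present in OAS1 at -168 to -160, in 9.38% of all genes with a window and in 9 of the 32 genes. A match is a description of the letters and not a measured binding site.

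OAS1, the small enzyme of the family, had the highest level of the 4 in DMSO. With DMSO it stood at 20.5 and 22.7 FPKM in control cells and at 25.0 and 22.3 in FDX1-OE cells. With ES it stood at 30.2 and 31.4 in control cells and at 98.2 and 130.8 in FDX1-OE cells. The DMSO groups overlapped, control ES lay above both, and FDX1-OE ES lay above all other libraries. In the same order the means were 21.6 ± 1.54 (SD, n = 2), 23.7 ± 1.89, 30.8 ± 0.860 and 114.5 ± 23.0 FPKM. Both libraries were above both of the other group for 50.7% of genes between FDX1-OE and control cells under ES, for 48.2% with ES in control cells and for 58.9% with ES in FDX1-OE cells, so a lack of overlap is common here.

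OAS3, the largest enzyme, followed the same order of groups. With DMSO it stood at 14.1 and 14.2 FPKM in control cells and at 15.9 and 15.4 in FDX1-OE cells. With ES it stood at 24.0 and 22.7 in control cells and at 87.4 and 128.6 in FDX1-OE cells. No groups overlapped, FDX1-OE DMSO lying above control DMSO as 19.5% of genes did. In FDX1-OE ES the OAS3 level (108 ± 29.2 FPKM, SD, n = 2) was within the replicate spread of that of OAS1. OAS1 was higher than OAS3 in each of the 8 libraries, by little in replicate 2 of FDX1-OE ES (130.8 against 128.6 FPKM).

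OAS2, the middle-sized enzyme, was low in DMSO. With DMSO it stood at 1.61 and 2.12 FPKM in control cells and at 2.20 and 2.44 in FDX1-OE cells. With ES it stood at 5.08 and 5.39 in control cells and at 42.2 and 53.5 in FDX1-OE cells. No groups overlapped, and the gap between the DMSO groups was smaller than the gap between the 2 control DMSO libraries. The mean in FDX1-OE ES, 47.8 ± 8.01 FPKM (SD, n = 2), was 9.14 times that in control ES and 20.6 times that in FDX1-OE DMSO.

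OASL was near 0 without ES. With DMSO it stood at 0.0237 and 0.0127 FPKM in control cells and at 0 and 0.0406 in FDX1-OE cells. With ES it stood at 1.44 and 1.04 in control cells and at 10.5 and 16.7 in FDX1-OE cells. The DMSO groups overlapped and the ES groups lay apart from them and from each other. OASL passed the filter on low values through the ES groups alone, so it had to differ from DMSO, and no ratio is given against a group with a library listed at 0. Between FDX1-OE and control cells under ES its mean was 11.0 times higher.

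**Figure D1:**
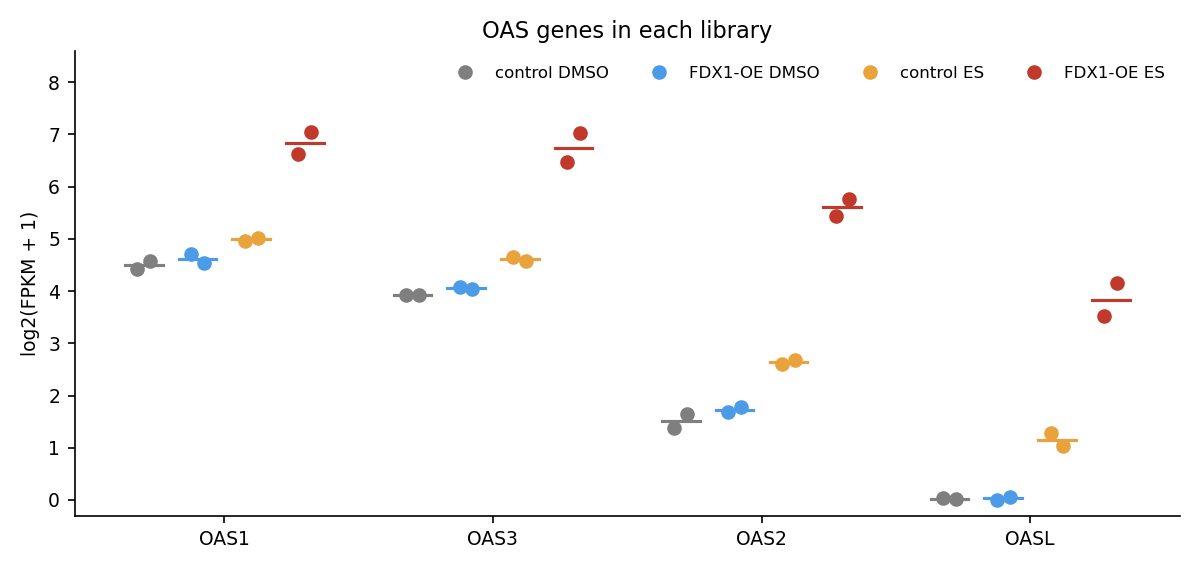
OAS1, OAS3, OAS2 and OASL as log2(FPKM + 1) (vertical axis) in each of the 8 libraries (points), coloured by group, with the means of the 2 log2 values (lines). For the 4 members the FDX1-OE ES libraries lie above all others, from 10.5 FPKM for OASL to 130.8 FPKM for OAS1.

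Without ES, the question is whether FDX1 overexpression alone moved the family. No member passed the threshold. On the log2(FPKM + 1) scale the differences between FDX1-OE and control were 0.12 (SE 0.13) for OAS1, 0.22 (SE 0.13) for OAS2, 0.13 (SE 0.15) for OAS3 and 0.00 (SE 0.19) for OASL. Each had an adjusted p of 0.999 (limma, Benjamini-Hochberg over 12063 genes), with unadjusted p from 0.137 for OAS2 to 0.989 for OASL. In this comparison 0.00829% of genes were called, FDX1 alone, and 420 genes (3.48%) had an unadjusted p below 0.05. The ratios of mean FPKM were 1.09 for OAS1, 1.25 for OAS2 and 1.11 for OAS3, and the missed threshold does not show that the levels were alike.

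In control cells the members were higher with ES than with DMSO in both libraries. The log2 differences were 0.49 for OAS1, 1.13 for OAS2, 0.68 for OAS3 and 1.13 for OASL, with the same standard errors as above. Their median was 0.91 against 0.09 over all genes tested. In mean FPKM this was 1.42 times for OAS1, 2.81 times for OAS2 and 1.65 times for OAS3. In this comparison 6.74% of all genes were called higher. No calls are given for the members, because the family was chosen with this contrast known. Whether the members passed the threshold moved with the setting, while their median difference stayed between 0.77 and 1.09. Of all calls in this comparison 87.0% were higher, against 59.8% after median-ratio scaling and 74.5% after quantile normalisation.

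Under ES the same 4 genes were higher in FDX1-OE than in control cells, by 1.85 for OAS1, 2.96 for OAS2, 2.14 for OAS3 and 2.68 for OASL on the log2 scale. The median was 2.41 against 0.16 over all genes. In mean FPKM OAS1 was 3.72 times, OAS2 9.14 times and OAS3 4.62 times as high. In this comparison 31.1% of all genes were called higher, and no calls are given for the members because the family was chosen on this rise. By size of the log2 rise OAS2 ranked 10, OASL 15, OAS3 35 and OAS1 48 among the 12025 tested genes whose symbol has 1 row. The order of OAS2 and OASL depends on the pseudocount: at 0.1 the differences were 3.16 for OAS2 and 3.34 for OASL, and OASL also had the larger ratio of mean FPKM. In FDX1-OE cells the log2 level was higher with ES than with DMSO by 2.22 for OAS1, 3.87 for OAS2, 2.68 for OAS3 and 3.81 for OASL, a median of 3.25 against 0.25 over all genes. In that comparison 47.1% of genes were called higher. Both comparisons use the FDX1-OE ES libraries, so they are not independent of each other. A higher FPKM from more RNA per cell cannot be told apart from more cells expressing the gene.

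The lower totals of the FDX1-OE ES libraries went with these results, and the fits were repeated under 3 scalings. What part the totals had was not tested. The median difference of the members between FDX1-OE and control cells under ES was 2.27 after median-ratio scaling, 2.37 after quantile normalisation and 2.54 with equal totals, beside 2.41. For ES in FDX1-OE cells it was 3.06, 3.11 and 3.37 in that order, beside 3.25. The share of calls that were higher was 75.0% between FDX1-OE and control cells under ES, against 50.5% after median-ratio scaling, 49.1% after quantile normalisation and 88.9% with equal totals. For ES against DMSO in FDX1-OE cells it was 77.5%, against 53.9%, 48.7% and 86.7%. Replicate 2 of FDX1-OE ES was above replicate 1 for all 4 members, by 1.33 times for OAS1, 1.27 for OAS2, 1.47 for OAS3 and 1.59 for OASL. The 34 other interferon-stimulated genes tested were also all higher in that replicate, against 6454 of 12025 genes (53.7%) overall.

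The ES difference in FDX1-OE cells exceeded that in control cells by 1.72 (SE 0.18) for OAS1, 2.74 (SE 0.19) for OAS2, 2.00 (SE 0.21) for OAS3 and 2.68 (SE 0.27) for OASL on the log2 scale. The median was 2.34 against 0.15 over all genes. In this comparison 13.9% of genes were called higher, and no calls are given for the members because the family was chosen on its rise under ES. Of all its calls 73.4% were higher, against 44.0% after median-ratio scaling, 49.0% after quantile normalisation and 89.6% with equal totals.

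**Figure D2:**
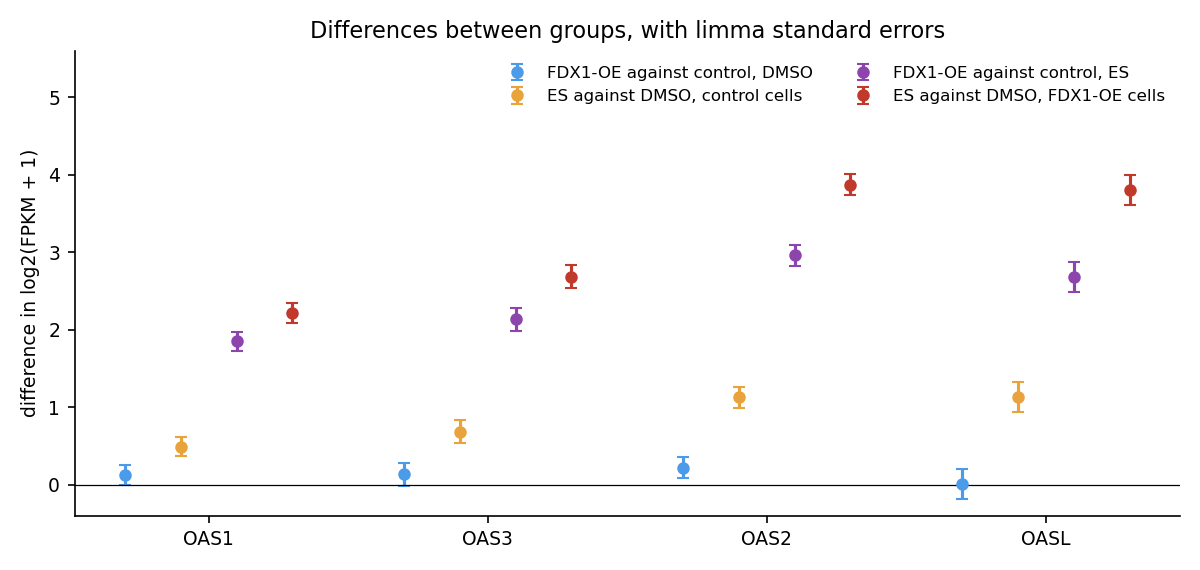
Log2 differences of the 4 members on the log2(FPKM + 1) scale, with standard errors from limma as bars, in the 4 pairwise comparisons. In DMSO the members lie between 0.00 and 0.22, and in FDX1-OE cells with ES against DMSO they lie between 2.22 and 3.87.

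The shares of OAS1, OAS2 and OASL in the family differed between control DMSO and each ES group, and between the ES groups, by more than the replicate SD, a description with no test. The DMSO groups did not differ by more than that, with 56.8% ± 1.75 for OAS1, 5.59% ± 0.697 for OAS2 and 0.0505% ± 0.0714 for OASL in FDX1-OE cells. With DMSO the FPKM summed over members was 37.7 ± 1.97 (SD, n = 2) in control and 41.7 ± 2.05 in FDX1-OE cells. With ES it was 60.6 ± 0.0778 and 284 ± 64.6. OAS1 made up 57.4% ± 1.10 of that sum in control DMSO. Under ES it made up 50.8% ± 1.49 in control cells, against 40.5% ± 1.10 in FDX1-OE cells. OAS2 went the other way, from 4.93% ± 0.701 in control DMSO to 8.64% ± 0.383 in control ES, reaching 17.0% ± 1.04 in FDX1-OE ES. The share of OAS3 lay between 37.6% and 38.6% in all 4 groups, within its replicate spread. OASL was 0.0490% of the sum in control DMSO. Under ES it was 2.04% ± 0.468 in control cells, against 4.74% ± 0.462 in FDX1-OE cells. These are shares of FPKM, which is per length of gene model, and so approximate shares of transcripts.

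**Figure D3:**
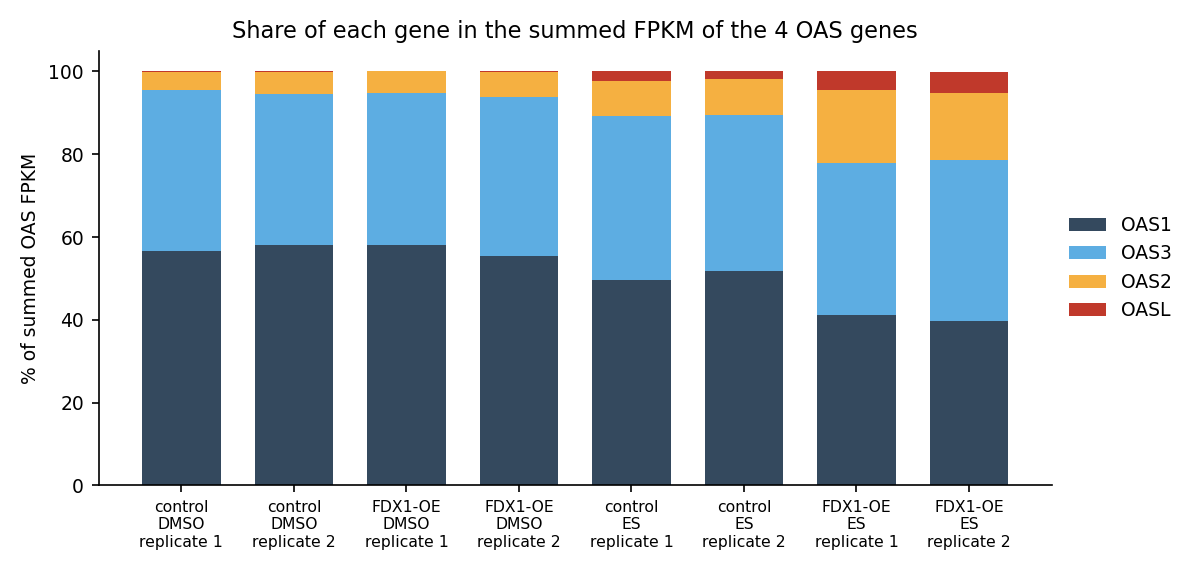
Share of the summed OAS FPKM (percent) held by each member, stacked, with 1 bar for each of the 8 libraries. The OAS1 share averages 57.4% in control DMSO and 40.5% in FDX1-OE ES, and the OAS2 share 4.93% and 17.0%.

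Members also differed in how closely their profiles followed each other. The distance between 2 profiles was the root mean square difference of row-centred log2 values over the 8 libraries, which share all group effects, and is a description. It was 0.204 between OAS1 and OAS3, neighbours on chromosome 12, and 0.181 between OAS2 and OASL, which lie apart. The second of these depends on the pseudocount: at 0.1, chosen after the data were seen, it was 1.16 between OAS2 and OASL and 0.216 between OAS1 and OAS3. At a pseudocount of 1 the distance was 0.700 between OAS1 and OAS2 and 0.512 between OAS3 and its neighbour OAS2. The genes nearest to OAS1 were TRIM22 (0.117), PLSCR1 (0.119), TMEM130 (0.119), CDKN1A (0.126) and SAMD9 (0.129). The genes nearest to OAS3 were PARP12 (0.0747), IRF9 (0.0832), CCR7 (0.0924), DDX58 (0.102) and RNF213 (0.109). OAS2 was nearest to RSAD2 (0.118), IFI44 (0.130), IFIT1 (0.149), IFIT3 (0.151) and IFIT2 (0.170). OASL was nearest to IFIT2 (0.114), IFIT1 (0.140), RSAD2 (0.142), IFI44 (0.171) and IFIT3 (0.187). These lists are given at a pseudocount of 1 only, which compresses low levels, so a short distance does not mean a like ratio of change. CCR7 averaged 0.0235 FPKM in FDX1-OE DMSO and 6.60 in FDX1-OE ES, against 15.7 and 108 for OAS3. TRIM22 averaged 13.5 and 64.0 in these groups, against 23.7 and 114.5 for OAS1.

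Of 4 genes listed around the 2'-5' chains, whose levels and breakdown were not measured, 3 were tested, and AKAP7, a 2'-5' phosphodiesterase, was not. Between FDX1-OE and control cells under ES 1 was higher and 0 lower, close to the 31.1% over all genes, with a median of -0.03 against 0.16 over all genes. It was CNP, a phosphodiesterase of the same superfamily as AKAP7, at 18.9 and 22.6 FPKM in control ES against 28.4 and 37.0 in FDX1-OE ES (log2 difference 0.62, adjusted p = 0.00728, limma), a call lost without control ES replicate 1 (0.50, adjusted p = 0.0594). ABCE1, a ribosome recycling factor, lay between 41.8 and 58.0 FPKM in all libraries (-0.13, adjusted p = 0.419), and without FDX1-OE ES replicate 1 gave -0.35 (adjusted p = 0.00227). PDE12, which degrades the chains, gave -0.03 (adjusted p = 0.822). With ES in FDX1-OE cells 1 was higher and 0 lower, beside 47.1% of all genes higher. After median-ratio scaling 1 was higher and 2 lower, beside 3368 and 2878 of 11959 genes tested. With ES in control cells none was called. No gene of this or the following lists was called between FDX1-OE and control cells in DMSO. Among 14 cellular ribonucleases and decay factors 5 were higher and 0 lower, with a median of 0.24, a share near that of all genes, and with equal totals 9 were higher. With ES against DMSO 6 were higher in FDX1-OE cells, also near the 47.1% of all genes, and 0 in control cells. After median-ratio scaling that count in FDX1-OE cells was 4 higher and 2 lower, beside the same 3368 and 2878 of all genes. The smallest p values between FDX1-OE and control cells under ES were those of ZC3HAV1, the zinc finger antiviral protein, at 0.66 (adjusted p = 0.000994) and the 5' to 3' exonuclease XRN1 at 0.70 (adjusted p = 0.00149).

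Double-stranded RNA is the ligand of the OAS enzymes. Over all genes 31.1% were called higher between FDX1-OE and control cells under ES. Among 8 tested sensors and regulators of such RNA 7 were higher and 0 lower, with a median of 1.27. After median-ratio scaling or quantile normalisation 5 were higher, beside 2028 of 11959 and 1723 of 12063 genes tested. Of the 8, 2 reached the filter only through ES libraries. With ES against DMSO 7 were higher in FDX1-OE cells and 2 in control cells, beside 47.1% and 6.74% of all genes. The kinase PKR (EIF2AK2) stood at 8.0 and 8.63 FPKM in control ES against 29.2 and 28.5 in FDX1-OE ES (log2 difference 1.68, limma adjusted p = 2.1e-05). DDX58, which encodes RIG-I, rose by 2.23, IFIH1, which encodes MDA5, by 2.05, and ADAR, which edits double-stranded RNA, by 0.85. CGAS, a DNA sensor of the same nucleotidyltransferase fold as OAS, gave 0.57 (adjusted p = 0.00556), and 0.33 (adjusted p = 0.0517) after quantile normalisation. It was the 1 gene called of 4 tested around cGAS and STING, near the 31.1% of all genes, and STING1 itself was not tested. With ES in FDX1-OE cells 2 of the 4 were higher, near the 47.1% of all genes. After median-ratio scaling 1 was higher and 1 lower, beside 3368 and 2878 of 11959 genes tested.

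Of 15 genes of interferon receptor signalling, 12 were higher and 0 lower between FDX1-OE and control cells under ES, beside 31.1% of all genes higher. Their median was 0.52. After quantile normalisation 9 were higher and 1 lower, beside 1723 and 1788 of 12063 genes tested. Of the 15, 1 (USP18) reached the filter only through ES libraries. With ES against DMSO 13 were higher in FDX1-OE cells and 5 in control cells, beside 47.1% and 6.74% of all genes. IRF9 stood at 1.11 to 1.63 FPKM in the 4 DMSO libraries. Under ES it stood at 2.47 and 2.64 in control cells against 13.1 and 16.5 in FDX1-OE cells, the order of groups seen for OAS1. The 4 genes of this list with the smallest p between FDX1-OE and control cells under ES were named by that p. Their log2 differences were 2.14 for IRF9, 2.76 for IRF7, 3.11 for USP18, a brake on the receptor, and 1.64 for STAT2. Interferon genes themselves were near 0. Of 21 with a row, 17 were listed at 0 in all 8 libraries and none was tested. IFNB1 had the highest value, at 0.127 and 0.957 FPKM in FDX1-OE ES, 0.0374 and 0 in control ES, and 0 in the 4 DMSO libraries. IFNA21, IFNL1 and IFNL3 were above 0 in 1 FDX1-OE ES library each.

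The other interferon-stimulated genes give a scale for the levels and rises of the members, described with no test. Of 37 such genes 25 were below 1 FPKM in control DMSO, the median was 0.428 FPKM and the highest was ISG15 at 94.2 FPKM. There 3 of the 37 were above OAS1, 3 above OAS3, 9 above OAS2 and 30 above OASL. Of the 37 there were 34 tested, and 21 of these reached the filter only through ES libraries, 8 of them only through those of FDX1-OE ES, so these had to be higher there. The 34 had a median log2 difference of 2.35 between FDX1-OE and control cells under ES, 3.28 with ES in FDX1-OE cells and 0.85 with ES in control cells. With ES in FDX1-OE cells the log2 rise of 26 of the 34 was larger than that of OAS1, of 20 than that of OAS3, of 9 than that of OASL and of 8 than that of OAS2. These counts rest on the pseudocount of 1, which understates the rise of genes near 0. At 0.1 the rise was 6.82 for OASL and 4.3 for OAS2. The genes with the smallest p between FDX1-OE and control cells under ES were IFI44 (2.96), PLSCR1 (1.92), IFIT3 (2.98) and MX1 (3.91).

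**Figure D4:**
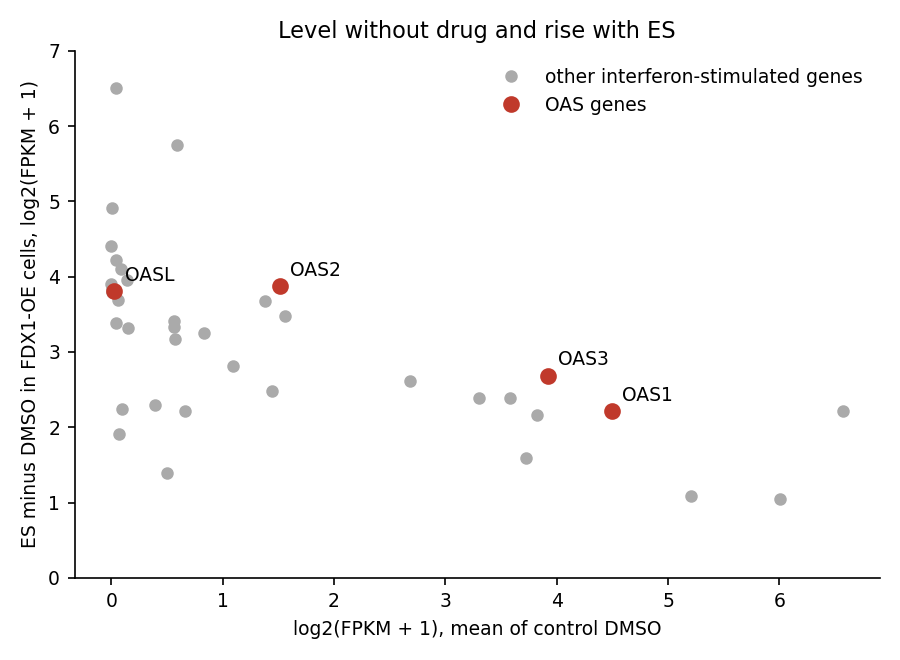
Log2 difference of ES against DMSO in FDX1-OE cells (vertical axis, log2(FPKM + 1) scale) against the mean log2(FPKM + 1) in control DMSO (horizontal axis), each point 1 gene, for the OAS members (red) and the 34 other interferon-stimulated genes tested (grey). OAS1 and OAS3 lie at 4.50 and 3.92 with rises of 2.22 and 2.68, and OASL lies at 0.03 with a rise of 3.81.

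Between FDX1-OE and control cells under ES no tested neighbour of the family was higher by as much as a member. Of 16 protein-coding neighbours, up to 4 on each side of the OAS1, OAS3 and OAS2 cluster and of OASL in the RefSeq gene table of GRCh38.p14, 11 were tested. Between FDX1-OE and control cells under ES 3 of the 11 were higher, near the 31.1% of all genes, and 2 were lower. Their median was 0.13, against 2.41 for the members. With ES against DMSO 4 were higher and 2 lower in FDX1-OE cells, against 47.1% of all genes higher. In control cells 1 was higher, beside 6.74% of all genes. The balance in FDX1-OE cells turned with the scaling, to 3 higher and 4 lower after median-ratio scaling and 6 and 1 with equal totals. Over all genes the calls moved the same way, from 5682 higher and 1652 lower to 3368 and 2878, and to 7129 and 1094. The call in control cells was lost after median-ratio scaling or quantile normalisation. HECTD4, before the cluster, gave 0.46 (limma adjusted p = 0.00789), a call lost without control ES replicate 1 (0.43, adjusted p = 0.0556). DTX1, after it, was at 150 and 151 FPKM in control ES against 112 and 120 in FDX1-OE ES (-0.37, adjusted p = 0.00288). DDX54, on the same side, gave -0.29 (adjusted p = 0.00594), and -0.16 (adjusted p = 0.0552) with equal totals. Beside OASL, the ion channel gene P2RX4 gave 0.84 (adjusted p = 0.00217) and SPPL3 0.39 (adjusted p = 0.00796), the latter 0.17 (adjusted p = 0.130) after quantile normalisation and 0.35 (adjusted p = 0.0592) without control ES replicate 1. An antisense gene that spans the cluster, AC004551.1, lay between 0 and 0.180 FPKM. It was looked at after its values were seen, and whether counting used strand is not stated, so its reads and those of the OAS genes cannot be told apart.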

How the data were processed

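Total RNA of WSU-DLCL2 cells was extracted with TRIzol and made into libraries with the VAHTS Universal V6 kit, per the labels' protocols. HISAT2, HTSeq, R 3.2.0 and hg19 appear, without roles, in the submitters' processing notes. The tool that made the deposited values, the annotation and the use of strand are not given in the sources used here. The deposited values are taken as FPKM, a unit read from the values because no header names it. limma 3.58.1 (R 4.3.3) fitted 4 group means to log2(FPKM + 1) of the 8 libraries, using a trend of variance on mean (4 residual and 4.25 prior degrees of freedom), over the 12063 genes that reached 1 FPKM in 2 or more libraries. This scale understates the change of low genes. Tests were two-sided, and calls needed an adjusted p (Benjamini-Hochberg) below 0.05. All 4 members passed the filter. Symbols shared by several rows (1059 rows) were not named.

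The OAS members and all gene lists were chosen with earlier results of these data known, so list counts are descriptions. Named genes were FDX1, the members, tested neighbours, up to 4 genes per list with the smallest p between FDX1-OE and control cells under ES, and the 5 nearest profiles of each member. Some genes of these lists are not reported here and were taken out of the counts and named genes. Others named were chosen after their values were seen. Alternatives were another pseudocount (0.1), no filter, a filter at 5 FPKM, 3 scalings, array weights, fits of the 2 groups alone, a replicate block and leaving out each library. The fit was tested on simulated data. Motifs were searched with Python 3.11.15.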

Additional observations from a re-analysis of the deposited data

Results flagged for a closer look

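The ES effect of the 4 members differed between FDX1-OE and control cells, which is given as values because the family was chosen on its rise under ES. On the log2 scale the ES effect in FDX1-OE cells exceeded that in control cells by 1.72 for OAS1, 2.74 for OAS2, 2.00 for OAS3 and 2.68 for OASL.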

How the results depend on the processing

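Of the values recomputed for 49 genes, 3789 kept their side of the threshold, 97 of them with a change of sign that was called in neither setting. The call was lost in 185, gained in 62 and reversed in 5. The reversals were RPL6 after quantile normalisation, with 0.27 between FDX1-OE and control cells under ES, 0.38 for ES in FDX1-OE cells and 0.35 for the interaction, and, for ES in FDX1-OE cells after median-ratio scaling, FDX1 (-0.18) and ANAPC5 (-0.16). For ES in control cells, whether a member passed the threshold depended on the setting. The members' median log2 difference of 2.41 between FDX1-OE and control cells under ES was 2.67 with a pseudocount of 0.1 and 2.11 to 2.70 without 1 library. For ES in control cells the median of 0.91 was 1.09 with that pseudocount and 0.82 to 0.91 without 1 library. For ES in FDX1-OE cells the median of 3.25 was 3.53 with that pseudocount, 3.06 after median-ratio scaling and 2.95 to 3.50 without 1 library. The interaction median of 2.34 was 2.05 to 2.59, and the DMSO median of 0.13 was 0.07 to 0.17, without 1 library. OASL carried most of the pseudocount's effect, with 3.49 for ES in control cells and 6.82 in FDX1-OE cells at 0.1.

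Genes called in DMSO numbered 1, and 3 with no filter, 4 with array weights and 1 to 2 without 1 library. Between FDX1-OE and control cells under ES the count of 5008 was 3026 with array weights, 3117 with the 2 groups alone and 2511 to 4903 without 1 library (2511 and 3218 without replicates 1 and 2 of control ES). For ES in control cells the count of 934 was 58 with no filter, 231 after quantile normalisation, 2523 with array weights, 1675 with the 2 groups alone and 28 to 2242 without 1 library. It was 165 and 28 without replicates 1 and 2 of control ES, 84 and 59 without those of control DMSO, 398 without either FDX1-OE DMSO replicate, and 2236 and 2242 without FDX1-OE ES replicates 1 and 2. For ES in FDX1-OE cells the count of 7334 was 5538 to 6970 without 1 library. The interaction count of 2291 was 1339 with no filter, 1400 after quantile normalisation, 3885 with equal totals and 539 to 3183 without 1 library. The median of all genes moved from 0.16 to 0.03, 0.00 and 0.28 between FDX1-OE and control cells under ES, and from 0.25 to 0.04, -0.01 and 0.37 for ES in FDX1-OE cells, after median-ratio, quantile and equal-total scaling. Apart from the leaving out of libraries, the cause of these moves was not tested.

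Replicate numbers were given in accession order and do not pair the samples: deviations of same-numbered libraries correlated at -0.0499 to 0.0793 over 12063 genes. With a replicate block the counts were 1, 4843, 705, 7235 and 1922 in the order above, and no member was called in DMSO. Depth is unknown, so no counting interval is given.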
